A study of Mus musculus with 9 samples.

Results

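The 10 genes described here encode the fibroblast growth factor (FGF) receptors *Fgfr1*, *Fgfr3*, *Fgfr4* and *Fgfrl1* and the ligands *Fgf1*, *Fgf2*, *Fgf7*, *Fgf10*, *Fgf18* and *Fgf21*, chosen by symbol from the 52459 gene symbols in the files. *Fgfr2* was left out of the set and is given only for comparison. RNA was sequenced from 9 libraries of NMuMG cells, an epithelial line from mouse mammary gland, with 3 libraries in each of 3 groups. Mock cells carried the empty pBICEP vector, EPR cells overexpressed the long noncoding RNA EPR (BC030870), and EPRSTOPE cells overexpressed a point mutant of EPR whose second codon is a stop, so that its small peptide is not made. Cells of all 3 groups were G418-selected pools of stable transfectants, and the vector drives the insert from a CMV promoter. The comparisons ask whether FGF receptor and ligand RNA moved with EPR, with its peptide-null form, or differently between them. Whether the 3 libraries of a group came from separate pools is not given in the labels, so the p-values measure only the spread between these libraries, and an effect of the pool cannot be told apart from one of the insert.

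FGFs are secreted or local signals that bind receptor tyrosine kinases at the cell surface together with heparan sulphate chains. The bound receptors phosphorylate the adaptor FRS2 and switch on the RAS-MAPK cascade, whose output includes Sprouty, Spred and Dusp6 proteins that dampen the same pathway. FGFR1, FGFR2 and FGFR3 are each made in IIIb and IIIc forms by a choice between alternative exons of the third immunoglobulin-like domain, and this choice sets which ligands bind. In the mammary gland, FGF10 from the stroma and the IIIb form of FGFR2 in the epithelium are known for their part in bud formation and branching.

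Library totals ran from 5972457 to 11876435 estimated counts, and 3 counts corresponded to 0.243 to 0.507 CPM, the count per 1000000 counts after TMM normalization in edgeR. EPR RNA itself was at 0 to 2 estimated counts in the mock libraries, 214 to 271 in the EPR libraries and 28 to 39 in the EPRSTOPE libraries. On the CPM scale this was 23.6 to 26.9 CPM with EPR and 3.79 to 4.73 CPM with EPRSTOPE, so the EPR and EPRSTOPE groups differed in the level of the overexpressed RNA as well as in the codon. The part of that level difference in any result below was not tested.

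Of the 10 genes, 4 had at least 1 CPM in at least 3 libraries and were tested (*Fgfr1*, *Fgfr3*, *Fgfrl1* and *Fgf1*). Passing the test means that the quasi-likelihood test of edgeR gave an adjusted p (Benjamini-Hochberg, over the 15370 genes tested) below 0.01 and that the log2 fold change exceeded 0.5 in size. Against mock, EPR cells had lower *Fgfr3* and *Fgfrl1* and higher *Fgf1*, which is 3 of the 4 tested genes beside 28.1% of all genes tested. EPRSTOPE cells also had lower *Fgfr3* and *Fgfrl1*, 2 of the 4 beside 28.0% of all genes. Between EPR and EPRSTOPE, *Fgf1* alone of the 4 passed the test, beside 13.2% of all genes. With 4 genes tested, these shares are a description.

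**Figure D1:**
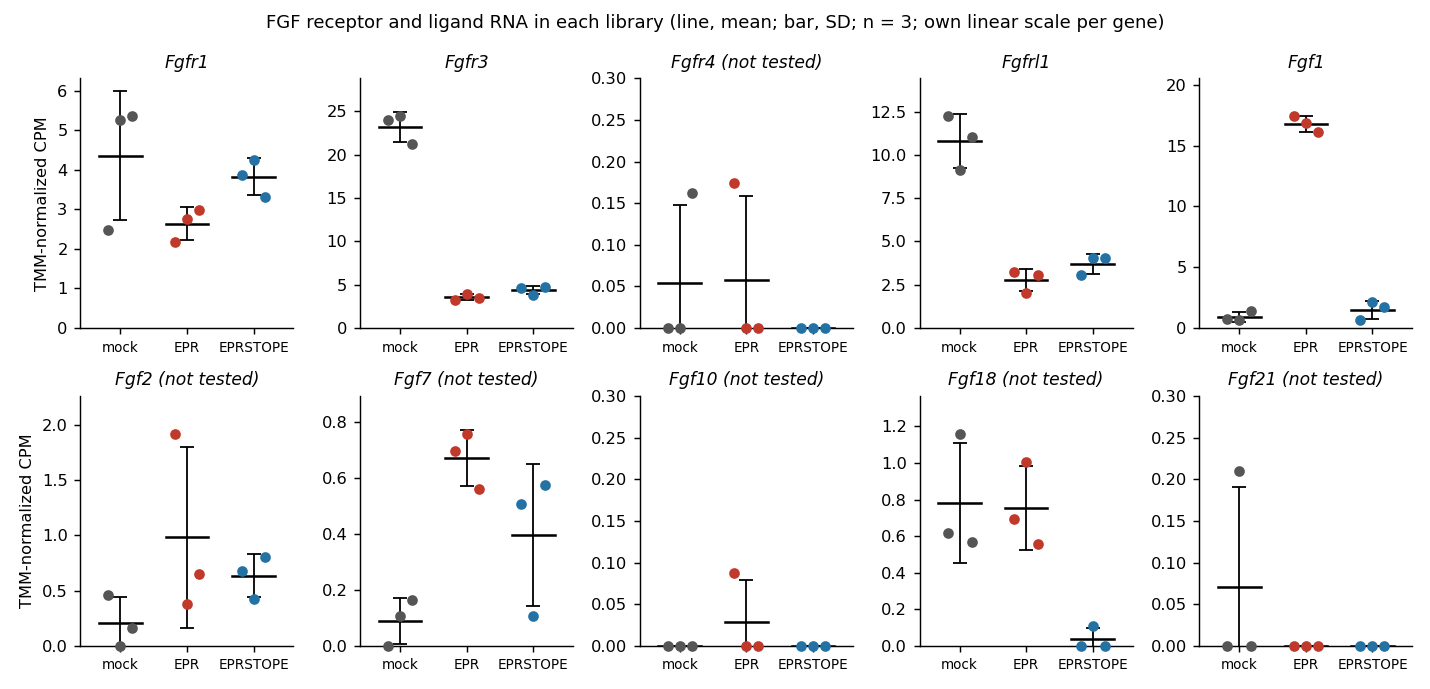
TMM-normalized CPM of each gene in the 9 libraries, with 1 point a library, a line for the mean and a bar for the SD (n = 3), on a linear axis of its own for each gene and cut at 0. *Fgfr3* and *Fgfrl1* are high in the mock libraries alone, *Fgf1* in the EPR libraries alone, and the 6 genes that were not tested stay below 2 CPM.

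*Fgfr3* (ENSMUSG00000054252.17, chromosome 5 of GRCm38 from 33721674 to 33737068, plus strand) encodes a receptor tyrosine kinase that binds FGF1, FGF9 and FGF18 among others. Its level was 23.98, 24.4 and 21.2 CPM in the mock libraries 203, 204 and 205. It was 3.22, 3.90 and 3.45 CPM in the EPR libraries 206, 207 and 208. In the EPRSTOPE libraries 209, 210 and 211 it was 4.56, 3.83 and 4.70 CPM. Every mock library lay far above every other library, and the EPR and EPRSTOPE libraries overlapped. Separate libraries were common among all genes tested. They did not overlap for 57.8% in EPR against mock, 56.4% in EPRSTOPE against mock and 43.0% in EPR against EPRSTOPE. The mean fell from 23.2 ± 1.8 CPM (SD, n = 3) in mock to 3.52 ± 0.35 CPM with EPR, a log2 fold change of -2.72 (SE 0.15, 95% interval -3.06 to -2.39, adjusted p = 3.59e-08 in the edgeR fit). With EPRSTOPE the mean was 4.37 ± 0.47 CPM (SD, n = 3) and the log2 fold change -2.41 (SE 0.15, adjusted p = 8.72e-08 in the edgeR fit). Lower RNA in a bulk library cannot be told apart between fewer cells that make it and less RNA in each cell. For a single gene, the exact two-sided permutation test of 3 libraries against 3 gave p = 0.1 in both comparisons, which is the smallest p it allows. *G630022F23Rik*, on the opposite strand, shares 998 of the 7158 exon bases of *Fgfr3*. It had a mean of 0.308 CPM in mock and 0 in the other groups. The strand setting of the quantification is not given in the sources used here, so some reads may belong to either gene.

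The difference in *Fgfr3* between EPR and EPRSTOPE did not pass the test. The log2 fold change was -0.31 with a 95% interval from -0.69 to 0.07 (adjusted p = 0.234 in the edgeR fit). A level with EPR up to 1.61-fold lower than with EPRSTOPE therefore lies inside the interval, and so does no difference.

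The files list 17 *Fgfr3* transcripts, and those that hold 1 of the alternative exons could be told apart by it. The exons are shown because they are the part of the gene that separates the IIIb and IIIc forms. They are the plus strand of GRCm38 at chr5:33731281-33731431 (upstream exon, IIIb, 151 bases) and chr5:33732117-33732261 (downstream exon, IIIc, 145 bases), read from the Gencode M21 transcripts. Capitals mark 2 runs of at least 6 bases that the exons share in the same order, 16 bases in all. Other runs of this length that the exons share, such as caatgt and gagtac, are not marked.
Fgfr3 upstream exon: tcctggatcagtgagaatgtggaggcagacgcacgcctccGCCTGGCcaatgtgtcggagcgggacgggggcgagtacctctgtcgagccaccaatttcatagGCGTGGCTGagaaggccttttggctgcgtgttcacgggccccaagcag
Fgfr3 downstream exon: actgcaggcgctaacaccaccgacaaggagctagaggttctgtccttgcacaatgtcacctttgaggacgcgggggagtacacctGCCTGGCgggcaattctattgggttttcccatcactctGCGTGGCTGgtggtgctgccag

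In the mock libraries most *Fgfr3* counts that fell on either class were assigned to transcripts with the downstream (IIIc) exon. The estimated counts were 70.6, 160 and 122 on the downstream class and 12.6, 6.43 and 7.42 on the upstream class in libraries 203, 204 and 205. The downstream class thus held 91.7% ± 6.1 (SD, n = 3) of the counts of both classes, and this share was lower, 65.0% (43.5% to 82.99% over the 3 libraries), when TPM, which divides by transcript length, replaced counts. With EPR the downstream class held 23.8, 8.71 and 32.6 estimated counts in libraries 206, 207 and 208, and the upstream class had 13.5 in library 207 and 0 in the other two. With EPRSTOPE the downstream class held 13.2 and 22.1 counts in libraries 209 and 210. Library 211 had 23.4 counts on the upstream class, which were all of its counts on either class. The class therefore switched completely between libraries of 1 group. Reads that fit several transcripts are divided among them by estimation in kallisto, and no change of form was read from counts this low. Counts on the downstream class were above 70 in every mock library and below 33 in every other library.

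**Figure D2:**
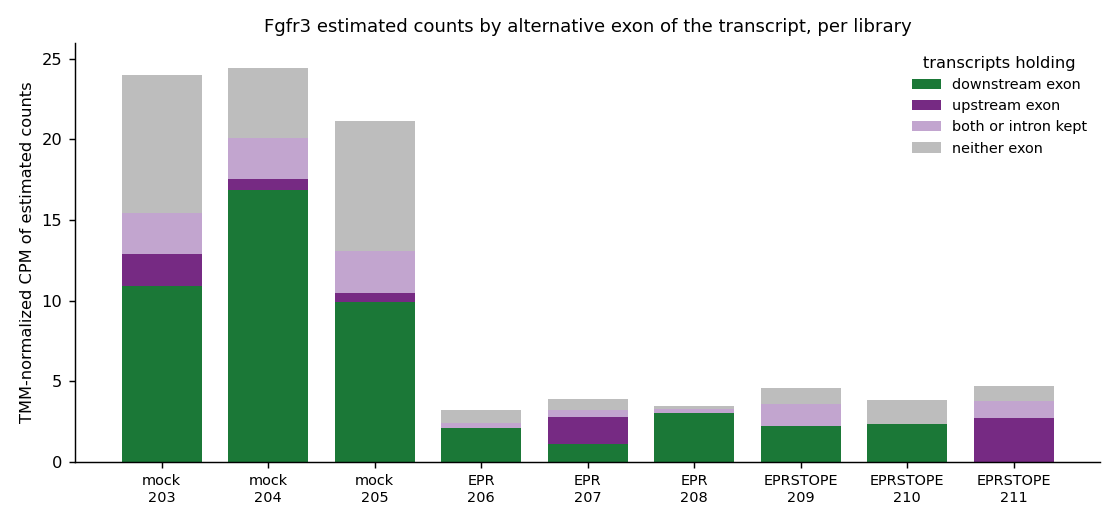
Estimated counts of *Fgfr3* transcripts per library, scaled to TMM-normalized CPM and stacked by which alternative exon the transcript holds (6 transcripts with the downstream IIIc exon, 4 with the upstream IIIb exon, 1 that keeps the intron and both, and 6 with neither). The downstream class runs from 9.88 to 16.9 CPM in mock and reaches at most 3.04 CPM in the 6 other libraries, where the upstream class appears in 207 and 211 only.

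*Fgfrl1* (ENSMUSG00000008090.14, chromosome 5 from 108692382 to 108706924, plus strand) encodes a receptor that binds FGFs and heparin but lacks the kinase domain. Its level was 12.2, 9.15 and 11.03 CPM in mock libraries 203, 204 and 205. The EPR libraries 206, 207 and 208 had 3.22, 2.01 and 3.07 CPM, and the EPRSTOPE libraries 209, 210 and 211 had 3.04, 4.05 and 4.02 CPM. As for *Fgfr3*, the mock libraries stood above all others and the EPR and EPRSTOPE libraries overlapped. The log2 fold change against mock was -1.94 with EPR (SE 0.23, 95% interval -2.44 to -1.43, adjusted p = 2.19e-05 in the edgeR fit) and -1.52 with EPRSTOPE (SE 0.23, 95% interval -2.02 to -1.02, adjusted p = 0.000147 in the edgeR fit). Between EPR and EPRSTOPE it was -0.41 (95% interval -0.95 to 0.13, adjusted p = 0.243 in the edgeR fit), so the direct difference missed the threshold.

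The size of the *Fgfrl1* difference changed with the scale of the counts, and the cause was not tested. With counts rebuilt from TPM and length the EPR change was -1.23 in place of -1.94, and the EPR against EPRSTOPE difference turned to 0.50 (adjusted p = 0.307 in the edgeR fit). In mock libraries 77.4% ± 6.2 (SD, n = 3) of *Fgfrl1* counts went to the transcript Fgfrl1-201, whereas in the EPR and EPRSTOPE libraries its share ran from 0 to 71.4% and from 0.294% to 100%.

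*Fgfr3* and *Fgfrl1* lie on the same chromosome but far apart, and the medians of their neighbours lay near 0. The 20 tested genes nearest to *Fgfr3*, within 0.776 Mb, had a median log2 fold change of -0.08 with EPR and -0.02 with EPRSTOPE. Single neighbours ran from -1.01 to 2.23 with EPR and from -2.08 to 1.99 with EPRSTOPE. The 20 nearest to *Fgfrl1*, within 0.983 Mb, had medians of 0.02 and -0.06, with ranges of -1.20 to 0.49 and -2.02 to 0.45. Over the 1075 other tested genes of chromosome 5 the medians were -0.02 and -0.06.

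Since both receptor genes fell in both populations, their promoters are shown, as 250 bases before and 50 bases after a start site in RefSeq on GRCm38.p6 (8 of the 10 genes had an entry). They lie on the plus strand at chr5:33721474-33721773, the first of the start sites listed for *Fgfr3*, and chr5:108693979-108694278. Capitals mark the GC box, GGGCGG or CCGCCC on the other strand, the sequence known to be bound by Sp1-type factors.
Fgfr3 promoter: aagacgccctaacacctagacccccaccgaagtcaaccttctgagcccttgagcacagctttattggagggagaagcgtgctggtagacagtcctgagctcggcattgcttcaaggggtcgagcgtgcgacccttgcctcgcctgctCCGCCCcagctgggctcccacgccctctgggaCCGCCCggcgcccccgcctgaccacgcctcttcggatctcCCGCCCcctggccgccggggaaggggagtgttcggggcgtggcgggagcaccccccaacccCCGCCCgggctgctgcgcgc
Fgfrl1 promoter: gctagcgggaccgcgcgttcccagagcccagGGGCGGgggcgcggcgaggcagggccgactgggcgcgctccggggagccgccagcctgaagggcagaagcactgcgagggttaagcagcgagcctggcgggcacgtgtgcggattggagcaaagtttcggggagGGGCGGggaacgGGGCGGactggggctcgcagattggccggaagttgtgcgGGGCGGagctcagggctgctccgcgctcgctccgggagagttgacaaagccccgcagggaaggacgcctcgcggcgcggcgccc

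Both sequences held 4 GC boxes, a number reached by 5.49% of the 32851 promoters of that table, of which 35.7% held at least 1. The *Fgfr4* promoter also held 4 and that gene had at most 2 counts in any library. At a further start site listed for *Fgfr3* the promoter, chr5:33722056-33722355, held 2, so the equal number depends on the start site shown. The promoters shown had 26 and 37 CpG dinucleotides, against a median of 7 over all promoters. Their GC content was 69.7% and 73.7%, against a median of 52.7%, and the GC boxes were not compared with promoters of like GC content. Any part of the GC boxes in the lower RNA was not tested.

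*Fgfr1* (ENSMUSG00000031565.18, chromosome 8 from 25513654 to 25575718, plus strand) encodes the receptor whose IIIc form is known from mesenchymal cells. It was low and uneven, with 2.48, 5.26 and 5.35 CPM in mock libraries 203, 204 and 205. The EPR libraries 206, 207 and 208 had 2.18, 2.77 and 2.98 CPM, and the EPRSTOPE libraries 209, 210 and 211 had 3.89, 4.26 and 3.33 CPM. Mock library 203, with 16 counts and the smallest total, lay among the EPR libraries, whereas the other mock libraries lay above every library of the other groups. None of the comparisons passed the test, at log2 fold changes of -0.76 for EPR (95% interval -1.43 to -0.08, adjusted p = 0.0634), -0.22 for EPRSTOPE (95% interval -0.89 to 0.45, adjusted p = 0.592) and -0.54 for EPR against EPRSTOPE (95% interval -1.23 to 0.16, adjusted p = 0.238), all in the edgeR fit. Library 203 decided the EPR call, and without it the log2 fold change was -1.01 (adjusted p = 0.00932 in the edgeR fit), past the threshold. The counts on the alternative IIIb and IIIc exons of *Fgfr1* were at most 19.0 in a library and were not read.

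*Fgfr4* (ENSMUSG00000005320.9, chromosome 13 from 55152640 to 55168759), the receptor best known from liver, had 2 counts in mock library 205, 2 in EPR library 206 and 0 in the other 7 libraries. At this depth the RNA was not distinguishable from 0, since 3 counts correspond to as much as 0.507 CPM in a library (209).

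The excluded receptor *Fgfr2* had another pattern, with 43.1 to 57.1 CPM in mock, 9.66 to 13.0 CPM with EPR and 36.1 to 43.8 CPM with EPRSTOPE. Its log2 fold changes were -2.17, -0.26 and -1.91 in the same 3 comparisons, of which the first and the third passed the test. *Fgfr3* and *Fgfrl1* fell in both populations, and *Fgfr2* passed the test with EPR only and differed between EPR and EPRSTOPE.

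**Figure D3:**
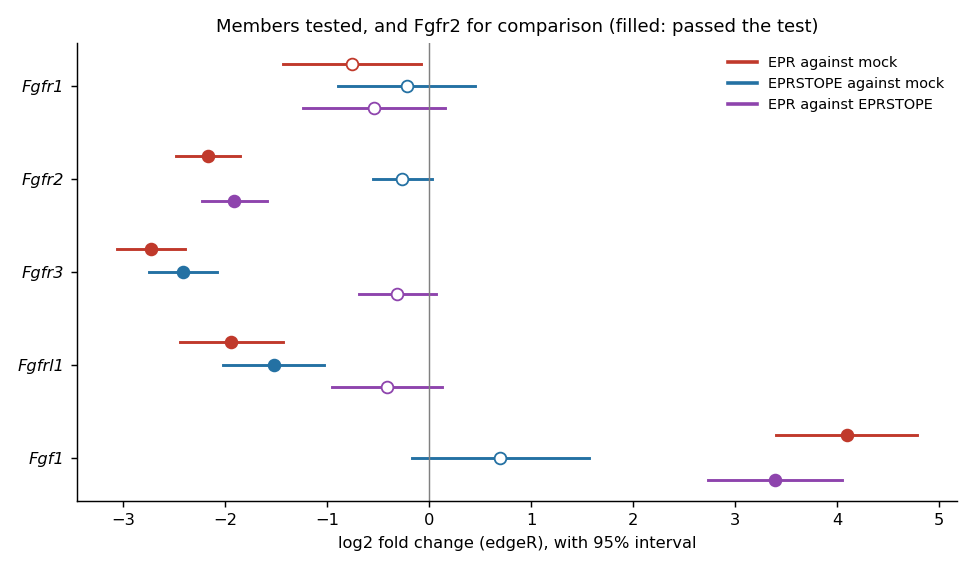
Log2 fold changes from edgeR with 95% intervals for the 4 tested genes and *Fgfr2*, in EPR against mock (red), EPRSTOPE against mock (blue) and EPR against EPRSTOPE (purple), where filled points passed the test. *Fgfr3* and *Fgfrl1* lie below 0 in both comparisons with mock, and *Fgf1* lies at 4.09 with EPR and 0.70 with EPRSTOPE.

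*Fgf1* (ENSMUSG00000036585.15, chromosome 18 from 38838673 to 38929472, minus strand) was the only one of the 6 ligands that reached the filter, and it rose with EPR. FGF1 is an acidic FGF that lacks a signal peptide and can bind every FGF receptor. It had 0.773, 0.631 and 1.38 CPM in mock libraries 203, 204 and 205. The EPR libraries 206, 207 and 208 had 17.4, 16.9 and 16.1 CPM. The EPRSTOPE libraries 209, 210 and 211 had 0.676, 2.13 and 1.72 CPM. The EPR libraries stood apart from all 6 others, and the mock and EPRSTOPE libraries overlapped. Of all genes tested, 57.8% did not overlap between EPR and mock, and 43.0% between EPR and EPRSTOPE. The increase with EPR was 4.09 on the log2 scale (SE 0.32, 95% interval 3.40 to 4.79, adjusted p = 5.92e-07 in the edgeR fit), which is 17.1-fold. Between EPR and EPRSTOPE the difference was 3.39 (SE 0.30, 95% interval 2.73 to 4.05, adjusted p = 5.57e-06 in the edgeR fit), or 10.5-fold.

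For EPRSTOPE against mock the *Fgf1* value was 0.70 (95% interval -0.17 to 1.57, adjusted p = 0.171 in the edgeR fit), so a rise of up to 2.96-fold lies inside the interval. The mock level rests on 28 counts over 3 libraries and the EPRSTOPE level on 39, against 507 with EPR. With EPR, 68.2% ± 9.3 (SD, n = 3) of the counts went to the transcript Fgf1-201. EPR RNA was also higher in the EPR than in the EPRSTOPE libraries, as given above.

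*Arhgap26* overlaps *Fgf1* on the opposite strand, and its exons share 0 bases with those of *Fgf1*. It also rose with EPR, from 4.14 to 4.80 CPM in mock to 9.82 to 14.3 CPM (1.49 on the log2 scale, adjusted p = 4.52e-05 in the edgeR fit). With EPRSTOPE it lay at 6.42 to 8.26 CPM (0.67, adjusted p = 0.0160 in the edgeR fit), short of the threshold. Its direct difference between EPR and EPRSTOPE was 0.82 (adjusted p = 0.00570 in the edgeR fit). The 20 tested genes nearest to *Fgf1* had a median log2 fold change of 0.29 with EPR and 0.28 with EPRSTOPE, against 0.01 and 0.02 over the other 351 tested genes of chromosome 18. Single neighbours of *Fgf1* ran from -3.21 to 2.87 with EPR and from -6.89 to 3.15 with EPRSTOPE.

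*Fgf18* (ENSMUSG00000057967.12, chromosome 11 from 33117430 to 33147400) encodes a ligand that prefers FGFR3 and FGFR4 and the IIIc form of FGFR2. It was too low for the filter and was seen mainly in the mock and EPR groups. It had 4, 11 and 7 counts in mock libraries 203, 204 and 205, and 8, 8 and 6 counts in EPR libraries 206, 207 and 208. In EPRSTOPE libraries 209, 210 and 211 it had 0, 1 and 0 counts. Summed over each group, 22 counts stood against 1, a level 18.7-fold lower with EPRSTOPE than in mock (95% interval 3.02 to 771 from the counts alone). EPR and mock had 22 counts each, at a ratio of 1.07 with an interval from 0.563 to 2.02. When no filter was used the edgeR fit gave log2 fold changes of -3.88 for EPRSTOPE against mock (adjusted p = 0.00302) and 3.80 for EPR against EPRSTOPE (adjusted p = 0.00658), and -0.07 for EPR against mock. These intervals cover counting error only.

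*Fgf7* (ENSMUSG00000027208.14, chromosome 2 from 126034658 to 126091185) encodes keratinocyte growth factor, a stromal ligand of the IIIb form of FGFR2. It had 0, 1 and 2 counts in mock libraries 203, 204 and 205, then 8, 6 and 6 in EPR libraries 206, 207 and 208, and 3, 1 and 5 in EPRSTOPE libraries 209, 210 and 211. All EPR libraries lay above all mock libraries in CPM, and the EPRSTOPE libraries overlapped both groups. Between EPR and mock, 57.8% of all genes tested did not overlap. The ratio of EPR to mock was 6.25 with an interval from 1.85 to 32.9, on 20 and 3 counts. Without a filter the edgeR fit gave 2.55 on the log2 scale (adjusted p = 0.0518), which did not pass the test. With counts rebuilt from TPM and length *Fgf7* reached the filter and passed the test, at 3.83 (adjusted p = 0.00355 in the edgeR fit). Its TPM was 0.533 to 0.734 with EPR, 0 to 0.0603 in mock and 0.0568 to 0.334 with EPRSTOPE. The gene thus reached that filter through the EPR libraries, where it is high, and the pass is no separate support.

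*Fgf2* (ENSMUSG00000037225.13, chromosome 3 from 37348346 to 37410108) encodes basic FGF, a ligand without a signal peptide. It had 3, 0 and 2 counts in mock libraries 203, 204 and 205, and 22, 3 and 7 counts in EPR libraries 206, 207 and 208. The EPRSTOPE libraries 209, 210 and 211 had 4, 4 and 7 counts. EPR library 206 held 22 of the 32 EPR counts, library 207 lay below every EPRSTOPE library in CPM, and library 208 lay among them. The groups overlapped in CPM in all 3 comparisons. Without a filter the edgeR fit gave 2.37 for EPR against mock (adjusted p = 0.0198), short of the threshold. *Nudt6*, on the opposite strand, shares 640 of the 6782 exon bases of *Fgf2*, and the strand setting of the quantification is not given in the sources used here, so some of these reads may belong to either gene.

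*Fgf10* (ENSMUSG00000021732.14, chromosome 13 from 118669791 to 118792115), the stromal ligand of mammary branching, had 1 count, in EPR library 206. *Fgf21* (ENSMUSG00000030827.5, chromosome 7 from 45613886 to 45615490), an endocrine FGF of liver and fat, had 2 counts, both in mock library 204. Neither could be compared at this depth.

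Per transcript length, the order of the genes differed between the groups. In mock, *Fgfr3* was highest at 20.9 ± 6.9 TPM (SD, n = 3), then *Fgfrl1* at 5.40 ± 0.38 TPM and *Fgfr1* at 2.70 ± 1.19 TPM, each of the first pair clear of the next gene. The libraries of *Fgfr1* overlapped those of *Fgf18* (0.975 ± 0.438 TPM), and every gene below *Fgf1* (0.233 TPM) overlapped its neighbour. With EPR, *Fgf1* was highest at 6.57 ± 2.09 TPM and clear of the rest. *Fgfrl1* (1.47 to 2.46 TPM), *Fgfr3* (1.58 to 2.52 TPM) and *Fgfr1* (0.760 to 3.10 TPM) followed and did not differ beyond their spread. With EPRSTOPE, *Fgfr3* (2.91 TPM), *Fgfr1* (1.88 TPM) and *Fgfrl1* (1.46 TPM) overlapped in turn, and *Fgf1* lay below them at 0.504 TPM.

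The 10 genes have 68 transcripts in the files, of which 9 passed the filter at the transcript level. None of the 9 was called by edgeR in any comparison, beside 4.07%, 4.64% and 0.854% of all 45412 transcripts tested in the comparisons of EPR with mock, of EPRSTOPE with mock and of EPR with EPRSTOPE. At an unadjusted p under 0.05 there were 4, 1 and 2. The closest was Fgf1-201 with EPR, at a log2 fold change of 4.84 (SE 0.98, adjusted p = 0.0199 in the edgeR fit).

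Genes with the most similar pattern over the 9 libraries were found by Pearson's r of log2(CPM + 1), as a description. For *Fgfr3* they were *Baz1a* (r = 0.998), at 275 CPM in mock, 160 with EPR and 174 with EPRSTOPE, and *Col7a1* (r = 0.996), at 210, 5.55 and 6.71 CPM. For *Fgfrl1* the closest was *AU020206* (r = 0.993), at 30.9, 4.997 and 8.01 CPM. For *Fgf1* they were *Mast1* (r = 0.994), at 0.519, 3.90 and 0.759 CPM, and *Tenm4* (r = 0.993), at 7.49, 78.7 and 11.7 CPM. With 3 groups of 3 libraries, such values rest mostly on the differences between groups.

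Beyond the 10 genes, 5 lists of the FGF pathway were counted with the same call. Of the 16 other FGF ligands only *Fgf13*, an intracellular FGF, was tested, and it was not called in any comparison (log2 fold changes -0.14, 0.12 and -0.26), while 6 of the 16 had no count in any library. At an unadjusted p under 0.05 the edgeR counts for it were 0, 0 and 1 in the same comparisons, and limma called 0.

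Co-receptors and FGF-binding proteins, which present or hold ligand at the cell surface, moved in both directions. Of 12 tested, 4 rose and 5 fell with EPR, 4 rose and 4 fell with EPRSTOPE, and 3 were higher and 5 lower with EPR than with EPRSTOPE. These are 9, 8 and 8 of the 12, beside 28.1%, 28.0% and 13.2% of all genes tested. Their median log2 fold changes were 0.09, -0.22 and -0.55, beside -0.01, -0.04 and 0.01 over all genes tested. With counts rebuilt from TPM and length, 1 rose and 2 fell with EPR. *Gpc1*, a glypican, rose from 81.2 ± 4.6 CPM (SD, n = 3) in mock to 179.8 ± 12.3 with EPR and 253.5 ± 27.4 with EPRSTOPE (log2 fold changes 1.14 and 1.64). *Gpc2*, another glypican, had 7.79 ± 0.97 CPM in mock, 3.39 ± 0.76 with EPR and 1 count in all with EPRSTOPE, a level 190-fold lower than mock with a counting interval from 33.8 to 7544. *Flrt3*, a transmembrane protein that binds FGF receptors, fell with EPRSTOPE from 4.45 ± 1.25 to 1.48 ± 0.47 CPM (log2 fold change -1.60) and had 5.17 ± 0.68 CPM with EPR. *Fgfbp3*, a secreted FGF-binding protein, fell with EPR from 1.97 ± 0.53 to 0.495 ± 0.119 CPM (log2 fold change -1.98).

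Enzymes that build or trim heparan sulphate showed 7 genes higher and 3 lower of 19 tested, in EPR against mock and again in EPRSTOPE against mock. This is 10 of 19 each time, beside 28.1% and 28.0% of all genes tested. The list medians were 0.29 and 0.34 on the log2 scale, against -0.01 and -0.04 over all genes. *Sulf2*, which removes 6-O-sulphate from the chains outside the cell, rose from 15.4 ± 2.0 CPM (SD, n = 3) in mock to 121.7 ± 5.8 with EPR and 128.5 ± 7.9 with EPRSTOPE, at log2 fold changes of 2.97 and 3.04. *Hs6st2*, which adds 6-O-sulphate, fell from 55.2 ± 2.1 CPM to 11.3 ± 1.5 CPM with EPR (log2 fold change -2.29, SE 0.12). It had 0 counts in all 3 EPRSTOPE libraries, at least 442-fold lower than mock when 3 counts over the group are taken as the floor. *Ndst3*, an N-sulphotransferase, fell from 3.93 ± 0.59 CPM to 0.682 ± 0.437 with EPR (log2 fold change -2.57) and to 3 counts in all with EPRSTOPE. *Hs3st3b1*, a 3-O-sulphotransferase, rose from 1.10 ± 0.25 CPM to 4.99 ± 1.36 and 6.51 ± 1.59 CPM. Between EPR and EPRSTOPE, 2 of the 19 were higher and 0 lower, beside 13.2% of all genes tested, with a list median of -0.09 against 0.01 over all genes.

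Adaptors and genes of the RAS-MAPK cascade carry the signal inward from the receptor. Of 21 tested, 1 rose and 2 fell with EPR, 1 rose and 1 fell with EPRSTOPE, and 1 was lower with EPR than with EPRSTOPE, beside 28.1%, 28.0% and 13.2% of all genes tested. The list medians were -0.14, -0.03 and -0.15, against -0.01, -0.04 and 0.01 over all genes. With counts rebuilt from TPM and length *Shc1* was the only one called, in both comparisons with mock. *Shc1*, an adaptor of receptor tyrosine kinases, rose from 88.0 ± 3.3 CPM (SD, n = 3) to 223.8 ± 7.5 with EPR and 191.7 ± 5.6 with EPRSTOPE (log2 fold changes 1.35 and 1.12). The kinase gene *Braf* fell in both populations (-0.57 and -0.81). *Cbl*, which marks receptors for degradation, fell with EPR (-0.70) and had -0.45 with EPRSTOPE (adjusted p = 0.0289 in the edgeR fit).

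Feedback inhibitors and response genes of the pathway moved in both directions. Of 16 tested, 6 rose and 2 fell with EPR, and 6 rose and 3 fell with EPRSTOPE, which is 8 and 9 of the 16 beside 28.1% and 28.0% of all genes tested. The list medians were 0.33 and 0.62, against -0.01 and -0.04 over all genes. *Dusp6*, an ERK phosphatase, rose from 51.1 ± 1.0 CPM (SD, n = 3) in mock to 130.4 ± 6.5 with EPR and 146.9 ± 16.0 with EPRSTOPE (log2 fold changes 1.35 and 1.52). *Spred3*, a Sprouty-related inhibitor, rose from 3.03 ± 0.47 to 14.97 ± 0.91 and 10.47 ± 0.88 CPM (2.28 and 1.76). *Fos*, an immediate early gene, rose from 1.66 ± 0.68 to 4.42 ± 1.80 and 8.002 ± 0.912 CPM (1.38 and 2.21). *Etv4*, an ETS factor known as an FGF target, fell from 25.5 ± 1.7 to 17.7 ± 3.1 and 6.99 ± 1.20 CPM (-0.53 and -1.86). Between EPR and EPRSTOPE, 2 of the 16 were higher and 3 lower, beside 13.2% of all genes tested, with a median of 0.04 against 0.01 over all genes.

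**Figure D4:**
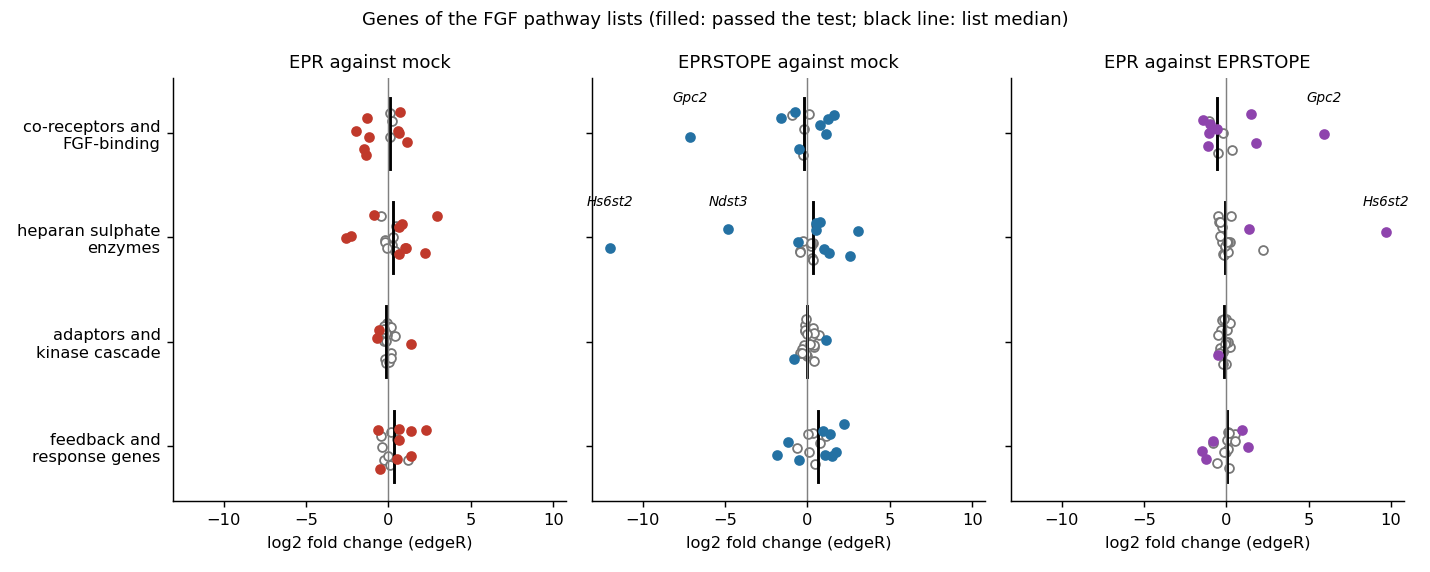
Log2 fold changes from edgeR of the tested genes of 4 FGF pathway lists in the 3 comparisons, 1 point a gene, with filled points for genes that passed the test and a black line for the list median. Among the adaptors and kinases *Shc1* lies highest, at 1.35 and 1.12 in the comparisons with mock, and the far points of the other lists are *Hs6st2*, *Gpc2* and *Ndst3*, whose fitted values against EPRSTOPE rest on 0 to 3 counts there and are not sizes to be read.

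Lists of cell type markers differed in whether and how they moved between the groups. The summed level of 12 epithelial markers was 3687 to 4155 CPM in mock, 9483 to 10589 with EPR and 10667 to 11006 with EPRSTOPE. Most of this sum was *Krt8* (means of 2101, 5247 and 5960 CPM) and *Krt18* (1521, 3734 and 4126 CPM). *Cldn3*, *Cldn4*, *Cldn7*, *Esrp1* and *Ovol1* had means of at most 0.230 CPM in any group. Of the 6 epithelial markers tested, 6 rose with EPR and 4 with EPRSTOPE, beside 28.1% and 28.0% of all genes tested called in either direction. The defining marker *Cdh1* had a mean of 0.840 CPM in mock, 554.5 with EPR and 401.5 with EPRSTOPE. *Epcam*, another defining marker, had 0, 3.62 and 0.109 CPM, and its EPRSTOPE difference from mock did not pass the test. This gene reached the filter only through the EPR libraries, so its call with EPR is no separate support. Of the 7 mesenchymal and fibroblast markers tested, 5 fell and 1 rose with EPR and 2 fell and 1 rose with EPRSTOPE. The shares of all genes tested called were again 28.1% and 28.0%. The sum over 12 mesenchymal genes was 4048 to 4212 CPM in mock, 2218 to 2447 with EPR and 3964 to 4301 with EPRSTOPE, which overlapped mock. *Twist1* was at 0 throughout. Most of this sum was *Vim* (means of 2624, 1762 and 3130 CPM) and *Fn1* (1035.5, 377.6 and 780.1 CPM). With EPRSTOPE, *Vim* lay above mock and *Fn1* below it, and neither passed the test. The 5 myoepithelial markers summed to 10.4 to 11.6 CPM in mock, 1.26 to 1.65 with EPR and 2.75 to 3.41 with EPRSTOPE. Of these, 2 of 2 tested were lower with EPR and 1 of 2 with EPRSTOPE, beside the same shares of all genes, and *Trp63* was at 0. Most of the mock sum was *Acta2*, with means of 10.0, 1.16 and 0.799 CPM in mock, EPR and EPRSTOPE. *Krt14* had 0.893, 0 and 2.31 CPM, and its log2 fold change of 1.37 with EPRSTOPE did not pass the test. Immune, endothelial and adipocyte markers summed to at most 3.82, 16.6 and 1.52 CPM in any library, and edgeR and limma called 0 of the 2 tested (1 at an unadjusted p under 0.05, *Cd68* with EPR). The part of these marker changes in the FGF receptor and ligand values was not tested.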

How the data were processed

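RNA was sequenced from 9 NMuMG libraries (3 mock, 3 EPR, 3 EPRSTOPE), grouped by their genotype label. The authors quantified reads with kallisto 0.43.1 (per the submitters' notes) on Gencode vM15 mouse transcripts and deposited, per transcript, an estimated count (not normalized), a TPM value (scaled by effective length to 1000000 per library) and lengths. The strand setting of kallisto is not given in the sources used here.

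The transcripts' estimated counts were added up by gene symbol and rounded. A gene entered the test in edgeR 4.0.16 if 3 or more libraries had 1 CPM or more (R 4.3.3; quasi-likelihood test, TMM, 1 factor with 3 levels, all 9 libraries, Benjamini-Hochberg). Standard errors came from the quasi-likelihood F statistic and 95% intervals from the t distribution with its degrees of freedom. Ratios of summed counts of low genes carry exact binomial intervals. Single genes were compared by exact two-sided permutation tests. The edgeR step alone was tested on simulated counts. For EPR against mock it called 144 of 196 genes changed by a log2 fold change of 1.5, and 2 unchanged genes. Far fewer genes were changed in the simulation than were called in these data. Positions and exons came from Gencode M21 (GRCm38) and promoters from RefSeq (GRCm38.p6). Other steps used Python 3.11.15 (scipy 1.17.1, numpy 2.4.6, pandas 2.3.3, matplotlib 3.10.9).

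The 10 genes, the pathway and marker lists and the tests were chosen with earlier results of these data known. Named are the 10 genes and *Fgfr2*, from each pathway list the called genes, at most the 4 with the largest log2 fold change in size, and, for each member averaging 10 CPM or more in a group, the 2 genes most like it. Of these, 2 genes are not reported here. Marker genes, *Arhgap26*, *Nudt6* and *G630022F23Rik* were named after their values were seen. Alternatives were DESeq2 1.42.0, limma 3.58.1 with voom, RLE normalization, no filter, at least 10 counts in every library, counts rebuilt from TPM and length, only the compared groups, a log2 fold change beyond 1, and leaving out each library in turn.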

Additional observations from a re-analysis of the deposited data

Results flagged for a closer look

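Among the 10 FGF receptor and ligand genes and the named genes of the pathway lists, 5 are given here that differed between the EPR and EPRSTOPE populations by the direct test of EPR against EPRSTOPE. Over all genes tested, 13.2% were called in that comparison. The named list genes were picked for a large called change in any comparison, this one included, so their number here is no result. EPR RNA was at 23.6 to 26.9 CPM in the EPR libraries and 3.79 to 4.73 CPM in the EPRSTOPE libraries, and its part in these differences was not tested.

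*Fgf1* was higher with EPR by 3.39 on the log2 scale (SE 0.30), and all 3 EPR libraries lay above all 3 EPRSTOPE libraries. In that comparison the libraries of 43.0% of all genes tested did not overlap. *Hs6st2* was higher with EPR, with a fitted value of 9.69 that depends on the prior count because EPRSTOPE had 0 counts, and its summed counts gave at least an 89.4-fold difference. *Gpc2* was higher with EPR, at a fitted 5.93, and 101 counts stood against 1, a ratio of 80.4 with a counting interval from 14.1 to 3208. *Flrt3* was higher with EPR by 1.83 (SE 0.32) and *Etv4* by 1.33 (SE 0.17). Groups of 3 libraries are too small for a check of single outlying libraries.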

How the results depend on the processing

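The changes of *Fgfr3*, *Fgfrl1* and *Fgf1* called in the report kept their direction and call in all 94 values recomputed under the 16 alternatives, 9 of which left out a library. Some of these left out a library of the group that was not compared, which could hardly move the estimate. For *Fgfr3* with EPR it was -2.712 without EPRSTOPE replicate 209, beside -2.721 with all libraries. *Fgf1* could not be tested at 10 counts in every library, which lowered the genes called between EPR and EPRSTOPE from 1 to 0, whereas no filter raised it to 2 by adding *Fgf18*. Of the values not called, *Fgfr1* with EPR passed the test without mock replicate 203 (-1.01), and *Fgfrl1* between EPR and EPRSTOPE turned to 0.50 with counts rebuilt from TPM and length (cause not tested). Leaving out a library gave 3 to 4, 2 to 2 and 1 to 1 of the 10 genes called in the 3 comparisons, and 3816 to 4328, 3817 to 4251 and 1664 to 2026 over all genes. A log2 fold change beyond 1 lowered the genes called to 2296, 2373 and 1001, by construction, and counts rebuilt from TPM and length gave 907 for EPR against EPRSTOPE. With TPM in place of counts the shares were 65.0% for the downstream exon of *Fgfr3* and 58.5% for Fgfrl1-201 in mock, and 38.7% for Fgf1-201 with EPR. All 15 pathway list counts under limma-voom stayed within 1.5 times. With counts rebuilt from TPM and length, tried for the lists after the data were seen, the genes called became 3 of the co-receptors with EPR, 1, 1 and 0 of the adaptors in the 3 comparisons, and 3 of the feedback genes between EPR and EPRSTOPE. The same counts added *Fgf7* to the genes called with EPR (4 in all), and the causes were not tested. *Fgf7* reached the filter there through the EPR libraries, where it is high, so this call is no separate support. Depth limits *Fgf2*, *Fgf7*, *Fgf10*, *Fgf18*, *Fgf21* and *Fgfr4*, whose counts were at most 22 in a library. No paired analysis was possible because the groups share no replicate numbers.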
